A study of Sus scrofa with 3 samples.

Results

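The immediate-early genes of the EGR, AP-1 and NR4A families, with IER3 and MYC, were followed in PIE cells, a non-transformed line cultured from the gut epithelium of an unsuckled newborn pig. The set was defined by 10 gene names: EGR1, EGR4, FOS, FOSL1, JUN, JUNB, IER3, NOR-1 (today NR4A3), NR4A1 and MYC. Members were the array probes whose name, description or accession gave one of these genes, which found 7 of the 10 genes and 15 of 43603 probes. No probe carrying the name of FOSL1, JUNB or NR4A1 was found, and these genes have no value here. FOS, NR4A3 and MYC were matched by the array's gene name and JUN (C-JUN on the array) and EGR4 (LOC100516906 on the array) by description. EGR1 (ENSSSCT00000015663 on the array) and IER3 (AK347702 on the array) were matched only through their accession in a RefSeq gene table, a step beyond names and descriptions.

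The study asked whether lactobacilli given beforehand alter the response of these cells to ETEC PAMPs, molecules of enterotoxigenic Escherichia coli that innate immune receptors recognise. All cultures were grown for 3 days, went through a period of 48 h with control medium or lactobacilli and a wash, and then received ETEC PAMPs for 12 h. The ETEC group had no lactobacilli, the TL2937+ETEC group had Lactobacillus jensenii TL2937, and the TL2766+ETEC group had Lactobacillus plantarum TL2766. Each of the 3 groups had 1 one-colour array, so there is no replicate spread, no difference was tested, and array, culture and group cannot be told apart. All 3 groups carry the ETEC challenge, and the design's unchallenged cells are not analysed here, so nothing is compared with resting cells.

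Immediate-early genes are transcribed within minutes of a stimulus, without the need for new protein, and most are switched off again soon after. Growth factor, cytokine and Toll-like receptor signals reach them mainly through MAP kinases, which act on SRF, ternary complex factors and CREB at their promoters. FOS and JUN proteins pair to form AP-1, EGR proteins are zinc finger transcription factors, NR4A proteins are orphan nuclear receptors and MYC drives growth genes, so the set as a whole passes a brief signal on to later genes. In gut epithelium these factors are known for their part in wound repair and in the response to bacterial products.

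Values below are scaled intensities, the processed fluorescence of a probe after each array was brought to a common 75th percentile, in arbitrary units, and log2 differences between arrays on that scale. They can be compared between arrays for 1 probe, not between probes, because probes bind with different efficiency. A probe counts as detected where the scanner software flagged it as well above background. The 75th percentile of processed intensity was 459 to 503 on the 3 arrays, between 60.9% and 62.5% of gene spots were detected, and of 6521 genes with a symbol 5066 to 5121 were detected. For 27 probes spotted 5 or more times, the median SD of a log2 difference between repeat spots was 0.082 to 0.11 in the 3 comparisons, and the highest was 0.57. That spread covers the spot alone and not the culture. Dim genes scattered more: among genes between 30 and 100 in scaled intensity the SD of the log2 difference over genes was 0.33 for TL2937+ETEC minus ETEC (698 genes) and 0.36 for TL2766+ETEC minus ETEC (686 genes), against 0.18 and 0.16 above 10000.

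The label of an epithelial line was checked against marker genes. Sums over a marker list, given below, can be compared between arrays and not between lists. Of 8 epithelial markers on the array, 5 were detected on the ETEC array and 4 on each lactobacillus array. Their summed scaled intensity was 1243, 1012 and 1061 in ETEC, TL2937+ETEC and TL2766+ETEC. OCLN, the tight junction protein occludin, read 1141, 922 and 967 on these arrays. KRT18, EPCAM and CLDN4 were not detected on any array, and KRT8, CDH1, VIL1 and CLDN3 were at 25.1 or less on every array, close to background. All 6 fibroblast and smooth muscle markers on the array were detected, with summed scaled intensities of 308086, 286913 and 302064. VIM, ACTA2 and DES were among them, while COL1A2, DCN and PDGFRB were dim, at 59.1 or less on every array. The 4 endothelial markers on the array summed to 147637, 141429 and 142010, with PECAM1, CDH5 and KDR detected on all 3 arrays. VWF read 22.7, 15.5 and 13.8 and was not detected with TL2766+ETEC. The 4 leukocyte markers on the array summed to 648, 746 and 756, with CD14 detected on all 3 arrays and PTPRC on none. Apart from OCLN, the epithelial markers on the array were therefore at or near background in cells labelled as epithelial. KRT18, VIL1, CLDN3 and CLDN4 had 1 probe each, so a failing probe and an absent transcript cannot be told apart there. The part of these marker levels in the results below was not tested.

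The probes that measured these genes are shown because the values of a gene depend on where its probe lies. Each is 60 bases long, and each is named here by the start position that the scanner files list for it, read as a position in its transcript. The files name no genome build, so no chromosome position is given, and they do not say which of these positions are coding. The EGR1 and JUN probes start at 1225 and 1114 and are each gene's only probe. The FOS probe at 769 and the NR4A3 probe at 1356 have the lowest start positions listed for those genes. The FOS probe at 769 is numbered on another transcript record than the other FOS probes, so its place relative to them is not known. Written 5′ to 3′ as deposited, these are:
EGR1, whole probe: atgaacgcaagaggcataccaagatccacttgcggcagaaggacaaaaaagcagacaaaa
JUN, whole probe: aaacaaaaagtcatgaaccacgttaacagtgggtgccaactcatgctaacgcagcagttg
FOS at 769, whole probe: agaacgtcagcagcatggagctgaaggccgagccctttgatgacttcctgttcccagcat
NR4A3 at 1356, whole probe: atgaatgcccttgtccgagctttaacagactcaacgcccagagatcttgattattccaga

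A further set is shown in runs of 30 bases. The EGR4 probe at 2208 carries the result on which that gene rests and has a GC content of 35%, against a median of 41.7% over all 43603 probes. The FOS probe at 1729 and the NR4A3 probe at 4981 have 35% as well. The IER3 probe at 781 holds ATTTA, the core of AU-rich elements that mark short-lived RNAs, in capitals below. That motif of 5 letters, read on the printed strand only, occurs in 9.33% of all probes and in no other member probe. The FOS probes at 1859 and 1880 overlap, so they are no independent measurements of FOS; the capitals mark the 18 bases they share at the start of the overlap, after which 1 of them holds a base that the other lacks and 21 further bases agree again. Outside this pair, no member probe shared a run of 20 bases with another probe of the array on either strand.
EGR4 at 2208, first 30 bases: ctttttgttgttgttaatttttgtaaagca
IER3 at 781, first 30 bases: tATTTAttttaacttatgctgcggagcgag
FOS at 1859, 30 bases from base 22: TTGGTGAGGTGGTCTGAAgttctgacatta
FOS at 1880, first 30 bases: TTGGTGAGGTGGTCTGAAtgttctgacatt

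Of the 15 member probes, 13 were detected on all 3 arrays. The EGR4 probe was detected on 1 array and the NR4A3 probe at 1356 on none. This left 6 genes that could be compared between all arrays: EGR1, FOS, JUN, IER3, NR4A3 and MYC.

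**Figure D1:**
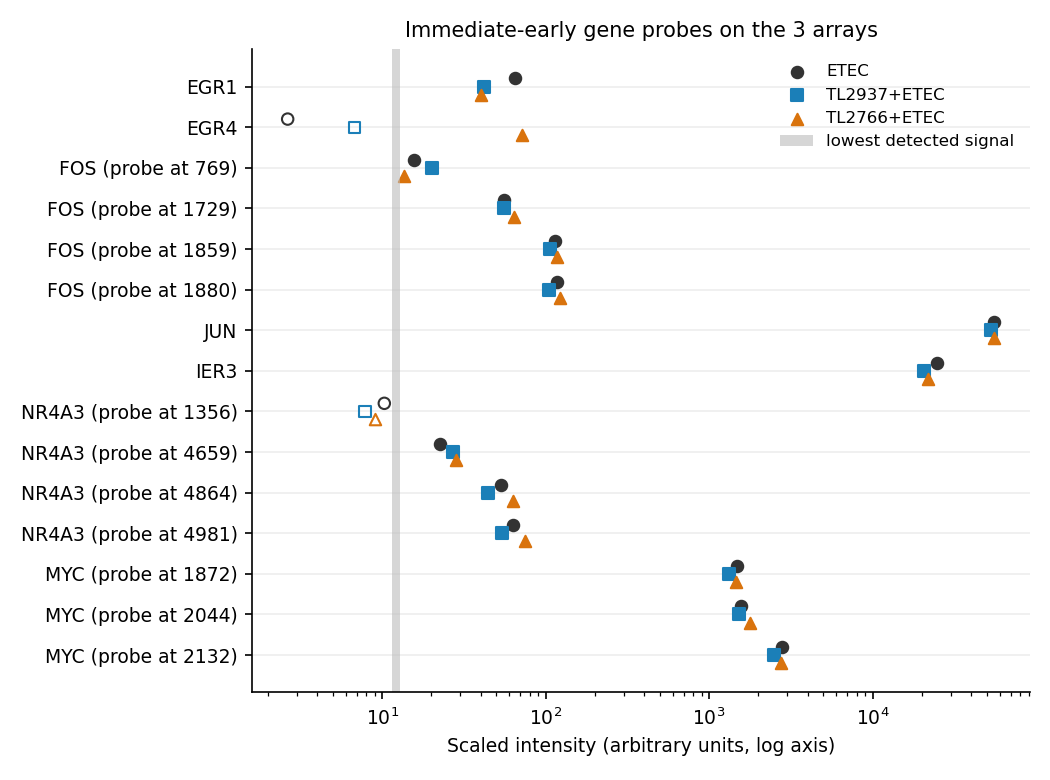
Scaled intensity (arbitrary units, log axis) of each of the 15 member probes on the ETEC array (black circles), the TL2937+ETEC array (blue squares) and the TL2766+ETEC array (orange triangles), with 1 array per group. Open symbols were not well above background, the grey band spans the lowest detected signal of the 3 arrays, and symbols should be compared along a row only: EGR1 lay higher with ETEC alone (64.8 against 41.8 and 40.1) and EGR4 was filled only for TL2766+ETEC (72.2).

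EGR1, the zinc finger factor induced by growth factors, injury and bacterial products, was lower with either lactobacillus. Its scaled intensity was 64.8 with ETEC alone, 41.8 with TL2937+ETEC and 40.1 with TL2766+ETEC. The ETEC array was the high one and the lactobacillus arrays lay close together. EGR1 was 1.55-fold lower in TL2937+ETEC than in ETEC (log2 difference -0.63) and 1.62-fold lower in TL2766+ETEC (-0.69), while the lactobacillus arrays differed by 0.060. Both differences exceeded the median repeat-spot SD of their comparison, 0.11 and 0.082, though the highest was 0.45 and 0.57. EGR1 lies among the dim genes between 30 and 100, where the SD over genes was 0.33 and 0.36. On the ETEC array its pixels varied more, relative to their mean, than those of 86.0% of spots of like signal (within 20%). Among genes of every signal level, 1.75% of 4973 had a lower difference than EGR1 in the TL2937+ETEC comparison. In the TL2766+ETEC comparison 0.990% of 4948 did. These comparisons share the ETEC array, so a high value of EGR1 on that array would enter both. With the background corrected by normexp, a model of signal plus noise, and an offset of 50 added, the differences were -0.34 and -0.35. They kept their direction, but an offset near the signal of a gene this dim shrinks log2 differences by itself. The smaller size is therefore no measure of how much of the difference was background. As these are bulk cultures, fewer cells of a type and less RNA per cell cannot be told apart.

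EGR4, a zinc finger factor of the same family best known from the nervous system, was detected with TL2766+ETEC alone. Its scaled intensity was 72.2 there, against 2.64 with ETEC and 6.75 with TL2937+ETEC, neither of them well above background. On the ETEC array the scanner software had put a surrogate value in place of the signal, so only a bound can be given. Each bound is the bright value over the higher of the dim array's lowest detected signal (12.9 for ETEC, 11.6 for TL2937+ETEC) and the probe's own dim value. By that measure EGR4 was at least 5.61-fold higher in TL2766+ETEC than in ETEC (log2 bound 2.49) and at least 6.25-fold higher than in TL2937+ETEC (2.64). The lowest detected signal is no strict detection limit, as EPCAM lay above it undetected on both dim arrays (13.3 and 13.7). Over all genes, 154 were detected with TL2766+ETEC and not with ETEC, and 113 with TL2766+ETEC and not with TL2937+ETEC. No other of these genes had a bound as high.

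The EGR4 value rests on 1 probe and 1 spot. On the TL2766+ETEC array that spot had a mean pixel signal of 126.4, a median of 124 and a local background of 39.5, and it carried no outlier flag. Its pixels varied more, relative to their mean, than those of 94.0% of spots of like signal (within 20%). With normexp background correction, which again added an offset of 50, the bounds fell to 1.05 and 0.95 on the log2 scale. For a signal this dim the offset alone lowers such a bound.

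FOS, the AP-1 subunit whose transcript is a standard marker of recent stimulation, had 4 probes, and they did not share a direction. The brightest, at 1880, read 118.0 with ETEC, 104.8 with TL2937+ETEC and 122.7 with TL2766+ETEC, differences from ETEC of -0.17 and 0.056 on the log2 scale. Its overlapping neighbour at 1859 read 113.9, 106.0 and 116.7 in the same order, differences of -0.10 and 0.035. The probe at 1729 read 55.4, 55.5 and 64.4, differences of 0.0037 and 0.22.

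The remaining FOS probe, at 769, was close to the detection limit. It read 15.7 with ETEC, 20.3 with TL2937+ETEC and 13.5 with TL2766+ETEC, so its order of the 3 arrays was the reverse of that of the probes at 1859 and 1880. Its differences from ETEC were 0.37 and -0.22, and it was 0.58 higher in TL2937+ETEC than in TL2766+ETEC, where the other 3 probes were 0.14 to 0.23 lower. Averaged over the 4 probes FOS differed from ETEC by 0.023 for TL2937+ETEC and 0.023 for TL2766+ETEC, and the sign of the first is opposite to that of the brightest probe. No direction for FOS holds over its probes.

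JUN, the AP-1 subunit that pairs with FOS, read 55571 with ETEC, 53105 with TL2937+ETEC and 55284 with TL2766+ETEC. The 3 arrays lay within 1.05-fold of each other. The log2 differences from ETEC were -0.065 and -0.0075, below the median repeat-spot SD of 0.11 and 0.082. Their sign turned with normexp (0.012 and 0.072) and cyclic loess scaling (0.0089 and 0.0026), so JUN had no direction. With 1 array per group this does not show that JUN was unchanged.

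IER3, which modulates survival and NF-kB and MAP kinase signals, was somewhat lower with either lactobacillus. Its only probe read 24650 with ETEC, 20698 with TL2937+ETEC and 21947 with TL2766+ETEC. The ETEC array was again the highest, though by less than for EGR1. The difference from ETEC was -0.25 for TL2937+ETEC, a 1.19-fold lower level, and -0.17 for TL2766+ETEC, 1.12-fold lower. Over the alternative settings tried these ranged from -0.29 to -0.19 and from -0.21 to -0.16. Of all genes, 13.1% and 16.0% had a lower difference, so IER3 did not stand apart from them.

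NR4A3, an orphan nuclear receptor induced by calcium, cAMP and inflammatory signals, differed between the lactobacilli by more than the other 5 genes detected on all arrays, each taken by its brightest probe. Its brightest probe, at 4981, read 63.4 with ETEC, 54.2 with TL2937+ETEC and 74.7 with TL2766+ETEC. TL2937+ETEC was the low array and TL2766+ETEC the high one, with ETEC between them. The differences from ETEC were -0.23 and 0.24, and TL2937+ETEC was 1.38-fold lower than TL2766+ETEC (a direct difference of -0.46). Among genes of every signal level, 2.55% of 4989 had a lower direct difference. NR4A3 lies among the dim genes between 30 and 100. There the SD of the direct difference over 696 genes was 0.28, and 17.4% were at least 1.2-fold lower. With normexp and its offset of 50 the direct difference was -0.33, and those from ETEC were -0.19 and 0.14.

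The NR4A3 probe at 4864 gave the same order, reading 53.3, 44.5 and 63.5 in ETEC, TL2937+ETEC and TL2766+ETEC, and a direct difference of -0.51. The probe at 4659 read 22.5, 27.2 and 28.5, so that both lactobacillus arrays lay above ETEC (0.28 and 0.34) and differed from each other by -0.067. The probe at 1356 read 10.3, 7.85 and 9.10 and was not detected. Averaged over the detected probes, the direct difference was -0.35, and the differences from ETEC were -0.070 for TL2937+ETEC and 0.28 for TL2766+ETEC. NR4A3 was therefore higher in TL2766+ETEC than in ETEC on each of its 3 detected probes. It was lower in TL2937+ETEC than in TL2766+ETEC on each of them, while the sign of TL2937+ETEC minus ETEC depended on the probe. The direct difference at 4659 was smaller than the median repeat-spot SD of its comparison, 0.087. For the probe at 4864 and the brightest probe, the TL2766+ETEC spots had pixels skewed upward. Their ratio of mean to median exceeded that of 97.9% and 96.5% of spots of like signal (within 20%). Median pixels in ETEC, TL2937+ETEC and TL2766+ETEC, before background subtraction and scaling, were 83, 82 and 87 at 4864, over local backgrounds of 33, 31 and 24. For the brightest probe the medians were 112, 110 and 122, over local backgrounds of 28, 30.5 and 26. The local background was thus lowest on the TL2766+ETEC array for both probes.

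MYC, the transcription factor that drives ribosome, nucleotide and cell cycle genes, varied little. Its brightest probe, at 2132, read 2806 with ETEC, 2488 with TL2937+ETEC and 2769 with TL2766+ETEC. The probe at 1872 read 1490, 1322 and 1461, and that at 2044 read 1559, 1526 and 1780. TL2937+ETEC was the lowest array for all 3 probes. Against ETEC it differed by -0.17, -0.17 and -0.031 for the probes at 2132, 1872 and 2044, while TL2766+ETEC differed by -0.019, -0.029 and 0.19. Every one of these differences was under 1.2-fold.

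**Figure D2:**
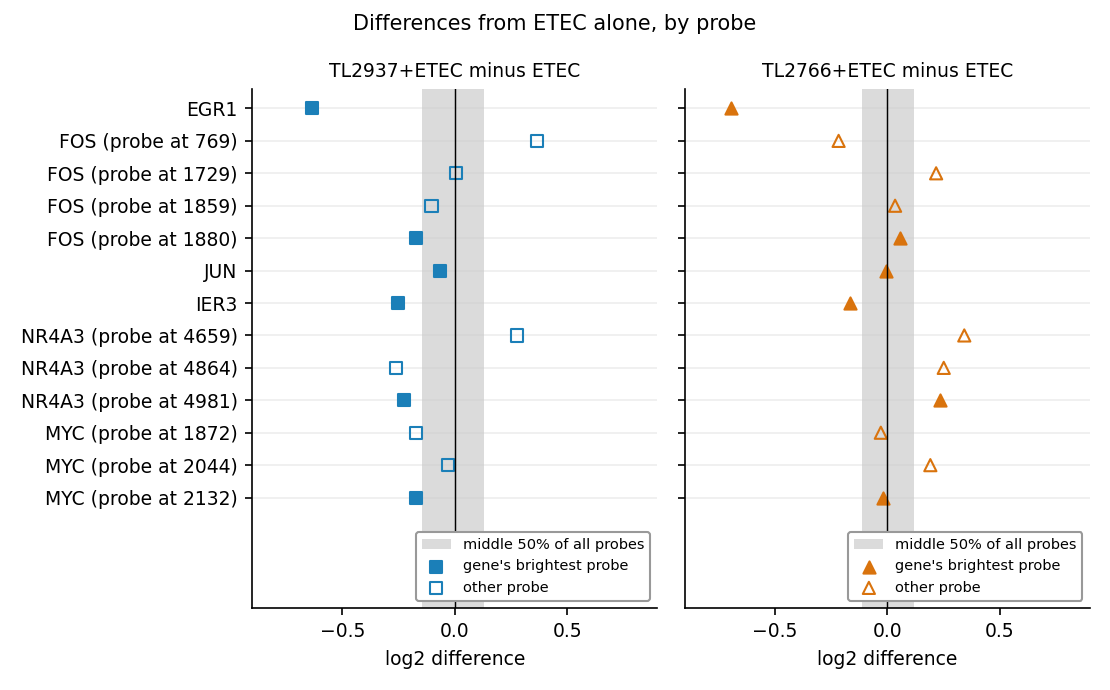
Log2 difference from the ETEC array for each of the 13 member probes detected on all 3 arrays, with TL2937+ETEC on the left and TL2766+ETEC on the right (1 array per group, no error bars). Filled symbols are each gene's brightest probe, open symbols its other probes, and the grey band holds the middle 50% of all probes: EGR1 lay far to the left in both panels (-0.63 and -0.69), and the probes of FOS and NR4A3 lay on both sides of 0 on the left.

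Taking each gene by its brightest probe, the 6 members had a median log2 difference of -0.20 for TL2937+ETEC minus ETEC, beside -0.040 over all 4973 genes. All 6 were below 0, and so were 59.2% of all genes. Only EGR1 was at least 1.2-fold lower (12.4% of all genes were) and none was at least 1.2-fold higher (7.24% of all genes). None of the 6 was 2-fold apart, as 0.382% of all genes were. The count of 6 below 0 depends on FOS and JUN, whose sign turns with the mean of all probes and with the settings named above. Over the 13 detected probes the median was -0.17, beside -0.015 over 25803 probes of the array.

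For TL2766+ETEC minus ETEC the median of the same 6 genes was -0.013, beside 0.0015 over all 4948 genes. Of the 6, 4 were below 0, against 49.6% of all genes. EGR1 alone was at least 1.2-fold lower (8.91% of all genes), none was at least 1.2-fold higher (8.1% of all genes) and none was 2-fold apart (0.566% of all genes). The other 5 members lay between -0.17 (IER3) and 0.24 (NR4A3).

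Between the lactobacilli, TL2937+ETEC minus TL2766+ETEC, the median of the 6 genes was -0.12, beside -0.043 over 4989 genes. Of the 6, 5 were below 0, against 65.3% of all genes, and EGR1 was the exception. NR4A3 alone was at least 1.2-fold lower (7.24% of all genes), none was at least 1.2-fold higher (4.25%) and none was 2-fold apart (0.281%). With shares of that size among all genes, 1 member of 6 past 1.2-fold in each comparison is no result about the set. EGR4 stood outside all these counts because it was detected on 1 array.

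**Figure D3:**
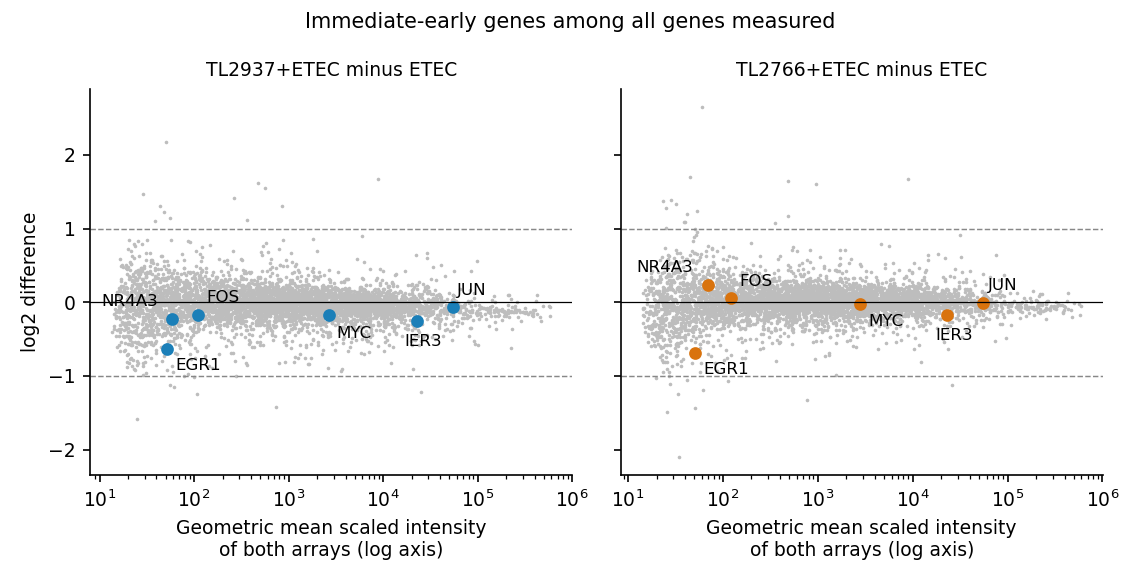
Log2 difference from ETEC against the geometric mean scaled intensity of the arrays compared (log axis), for every gene detected on both (grey points, 4973 genes for TL2937+ETEC on the left and 4948 for TL2766+ETEC on the right), with the 6 measured members in colour and dashed lines at 2-fold. EGR1 lies at the lower edge of the cloud among dim genes, where the scatter is widest, and the other 5 members lie inside the cloud.

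The genes whose values most resembled those of EGR1 were sought among 4920 genes detected on all 3 arrays, by the Euclidean distance over the differences from ETEC of the lactobacillus arrays. The nearest were ERMP1 (distance 0.014), KCNB2 (0.040) and RGN (0.051). ERMP1 read 88.8 with ETEC, 57.8 with TL2937+ETEC and 54.8 with TL2766+ETEC. KCNB2 read 70.1, 44.2 and 42.7, and RGN read 135.3, 85.5 and 86.2, in the same order. That all 3 have a high ETEC array, like EGR1, follows from the way they were chosen. The nearest member was IER3, at a distance of 0.65 and rank 608, so no other member followed EGR1 closely.

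Genes around the members in the pathway were taken from 5 lists, 85 genes in all, of which 39 had a named probe. The lists were drawn up with earlier results of these data known, so they describe and do not support. Upstream of the members, 9 of 20 listed kinases and transcription factors were on the array and 8 were detected. None of the 8 differed 1.2-fold in any of the 3 comparisons, and their medians were -0.066, -0.019 and -0.060 for TL2937+ETEC minus ETEC, TL2766+ETEC minus ETEC and TL2937+ETEC minus TL2766+ETEC. CREB1, which activates FOS and NR4A genes, came nearest, reading 582 with ETEC, 485 with TL2937+ETEC and 509.5 with TL2766+ETEC (-0.26 and -0.19). ELK4, a ternary complex factor that acts with SRF, differed by -0.25 and -0.057. MAP2K1 (MEK1, 0.12) and the kinase RPS6KA3 (-0.085) were the largest after CREB1 in TL2766+ETEC. EGFR was not detected on any array.

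Partners and inhibitors were thinly covered. Of 15 partners and co-repressors 2 had a named probe: MXI1, which opposes MYC, differed from ETEC by -0.14 and -0.13, and RXRA, a partner of some NR4A receptors, by 0.15 and 0.078. Of 10 feedback inhibitors of MAP kinase signalling 2 had one: SPRY2 differed by -0.18 and -0.032 and SPRED1 by 0.075 and 0.10. None of these 4 genes reached 1.2-fold.

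Other immediate-early genes were on the array for 11 of 20 listed, and 8 were detected on all arrays. In TL2937+ETEC 4 of the 8 were at least 1.2-fold lower than in ETEC and none was higher, with a median of -0.27. Over all genes 12.4% were that much lower and 7.24% higher, with a median of -0.040. CTGF, a matricellular protein of the CCN family induced by serum and TGF-beta, read 26078 with ETEC, 18202 with TL2937+ETEC and 17902 with TL2766+ETEC. CYR61, of the same family, read 93067, 72938 and 76020, KLF4, a zinc finger factor of differentiating epithelium, read 1545, 1194 and 1433, and BTG2, an antiproliferative gene, read 6939, 5486 and 6275. These 4 genes are the ones called lower in TL2937+ETEC than in ETEC. A high value on that ETEC array would enter their TL2766+ETEC differences too, so these are not independent of the choice. In TL2766+ETEC minus ETEC the 4 genes differed by -0.54 (CTGF), -0.29 (CYR61), -0.11 (KLF4) and -0.15 (BTG2).

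In TL2766+ETEC 3 of the 8 were at least 1.2-fold lower and 1 was higher, with a median of -0.13. Over all genes 8.91% were that much lower and 8.1% higher, with a median of 0.0015. The lower genes were CTGF (-0.54), CYR61 (-0.29) and KLF6 (-0.28). KLF2, a factor known from endothelium and quiescent lymphocytes, went the other way, reading 1120 with ETEC, 1300 with TL2937+ETEC and 1512 with TL2766+ETEC, a log2 difference of 0.43 in TL2766+ETEC. Between the lactobacilli 1 of the 8, KLF4, was at least 1.2-fold lower in TL2937+ETEC (-0.26), as 7.24% of all genes were.

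The nearest relatives of the members were at the limit of detection. EGR3 read 8.44 with ETEC, 11.95 with TL2937+ETEC and 16.9 with TL2766+ETEC and, like EGR4, was detected with TL2766+ETEC alone. Its bounds were only 1.31-fold over ETEC and 1.41-fold over TL2937+ETEC. Of the 154 genes detected with TL2766+ETEC and not with ETEC, 51.9% had a bound as high. Of the 113 detected with TL2766+ETEC and not with TL2937+ETEC, 57.5% did. EGR2 (4.01, 3.28 and 4.19) and NR4A2 (5.97, 6.52 and 12.01) were detected on no array.

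**Figure D4:**
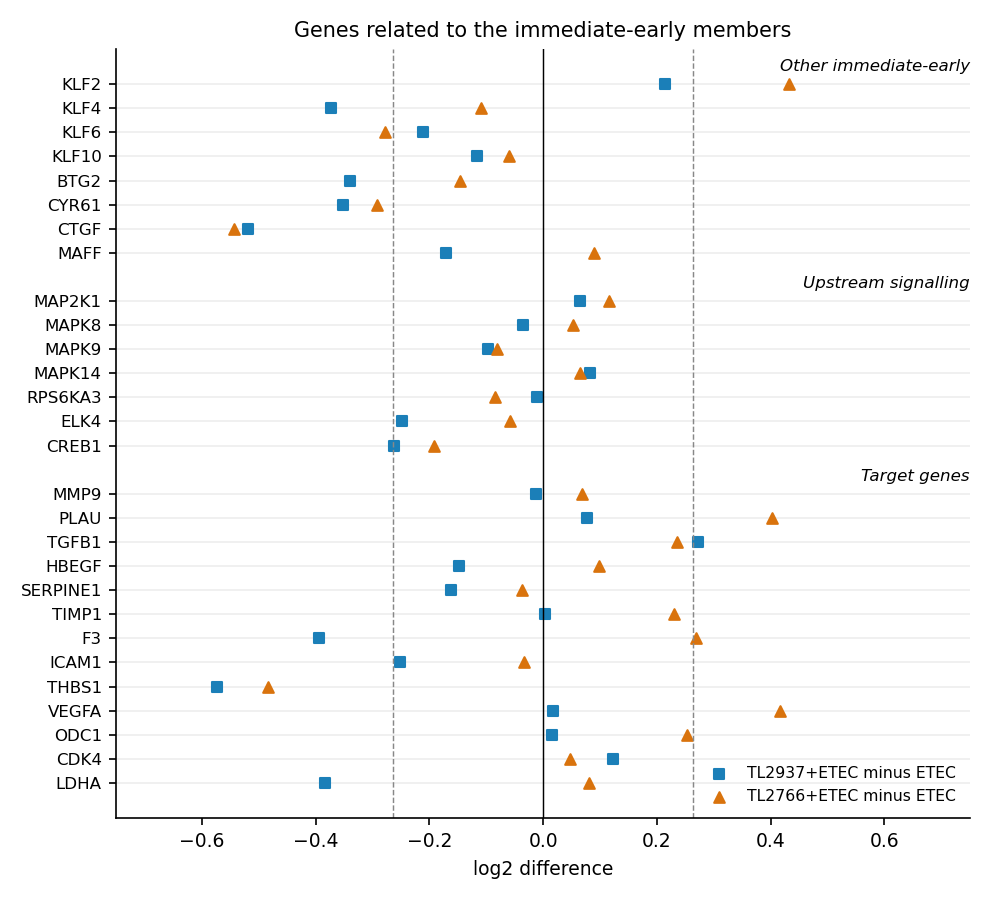
Log2 difference from ETEC of detected genes from the 3 longer lists, TL2937+ETEC as blue squares and TL2766+ETEC as orange triangles (1 array per group, no error bars), with dashed lines at 1.2-fold. The upstream genes drawn lie between the dashed lines, CTGF and CYR61 lie to the left of them in both comparisons, and the target genes lie on both sides.

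Textbook targets of AP-1, EGR1 and MYC were on the array for 15 of 20 listed, and 13 were detected. In TL2937+ETEC 3 were at least 1.2-fold lower and 1 was higher (median -0.012), in TL2766+ETEC 1 was lower and 3 were higher (median 0.098). Over all genes the shares lower and higher were 12.4% and 7.24% in TL2937+ETEC and 8.91% and 8.1% in TL2766+ETEC. THBS1, thrombospondin, read 113598 with ETEC, 76352 with TL2937+ETEC and 81217 with TL2766+ETEC (-0.57 and -0.48). It is the target that was lower than ETEC by 1.2-fold on both lactobacillus arrays.

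Several other targets differed between the lactobacilli. F3, tissue factor, read 125.1 with ETEC, 95.2 with TL2937+ETEC and 150.7 with TL2766+ETEC, lower than ETEC on one array (-0.39) and higher on the other (0.27). LDHA, lactate dehydrogenase and a MYC target, read 23100, 17703 and 24422 and was low with TL2937+ETEC alone (-0.38). VEGFA, an angiogenic growth factor, read 1696, 1716 and 2265, and PLAU, the urokinase protease, read 8538, 9004 and 11291, so both were high with TL2766+ETEC alone (0.42 and 0.40). TL2937+ETEC was at least 1.2-fold below TL2766+ETEC for 4 of the 13 targets and above it for none, with a median of -0.23. Over all genes 7.24% were that much lower and 4.25% higher, with a median of -0.043. The collagenase MMP1 and the stromelysin MMP3, standard AP-1 targets, were not detected on any array.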

How the data were processed

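Per the labels, total RNA of 1 culture per group was labelled with Cy3 for a one-colour array. Per the file headers, the deposited processed intensity came from the scanner software (Agilent Feature Extraction, version 10.7.3.1), which subtracted background and set surrogate values near 0; no scaling between arrays is recorded. The authors' value table held that intensity, uncentred and linear, to within 0.496%. Genome build and annotation are not given in the sources used here.

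Spots flagged as outliers (8, 9 and 4 on the 3 arrays) and control features were removed, and 0 spots were saturated. From the deposited intensity, log2 values minus each array's 75th percentile were computed, repeat spots were averaged per probe, and each gene was represented by its brightest probe (highest mean log2 value). Scaled intensities were multiplied by 480.8, the geometric mean of the percentiles. Fold thresholds of 2 and 1.2 were applied to genes well above background on both arrays of a comparison, from the deposited intensity. No test was possible with 1 array per group. Members and lists were chosen with earlier results of these data known. The text names all members, the 3 genes of each list that differed most from ETEC in each comparison, and the 3 genes nearest to EGR1. A gene that this rule names is not reported here. KLF6, BTG2, EGR2, EGR3, NR4A2, EGFR, MMP1 and MMP3 were named after their values were seen. Steps were tested on simulated data. Software was R 4.3.3 with limma 3.58.1, and Python 3.11.15 with matplotlib 3.10.9, pandas 2.3.3 and numpy 2.4.6.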

Additional observations from a re-analysis of the deposited data

How the results depend on the processing

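The alternatives were normexp background correction (offset 50), array median, quantile and cyclic loess scaling, the authors' value table, the mean of all probes, no background filter, a filter above the median detected signal, outlier spots kept and a 1.5-fold threshold. The members' median ranged from -0.21 to -0.098 for TL2937+ETEC minus ETEC, from -0.019 to 0.0077 for TL2766+ETEC minus ETEC and from -0.15 to -0.070 between the lactobacilli. Members 2-fold apart went from 0 to 1 without the filter in all 3 comparisons (EGR4) and with a 1.5-fold threshold against ETEC in both (EGR1). Members 1.2-fold lower in TL2937+ETEC minus ETEC went from 1 to 2 with normexp and with median scaling (IER3 joined EGR1) and to 0 with the stricter filter, which left only JUN, IER3 and MYC. That filter also gave 0 in TL2766+ETEC minus ETEC and between the lactobacilli, where no filter gave 2. Members 1.2-fold higher went from 0 to 1 without the filter in both comparisons with ETEC, and with the mean of all probes in TL2766+ETEC minus ETEC (NR4A3). Over all genes, 19, 28 and 14 were 2-fold apart in the 3 comparisons. These became 7, 7 and 1 with normexp, 6, 6 and 0 with the stricter filter, 30, 40 and 29 for averaged probes, 341, 426 and 374 unfiltered and 164, 144 and 68 at 1.5-fold. Genes 1.2-fold lower and higher, 616 and 360, 441 and 401, and 361 and 212 in the 3 comparisons, became 428 and 156, 256 and 193, and 152 and 39 with normexp, 1188 and 731, 1038 and 793, and 786 and 710 unfiltered, and 308 and 129, 172 and 164, and 121 and 29 with the stricter filter. No paired analysis was possible because each group had 1 array. Signal limits EGR4, the NR4A3 probe at 1356 and the FOS probe at 769, which lay near or below the lowest detected signal on at least 1 array.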
